A study of Mus musculus with 23 samples.

Results

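The 7 genes described here are *Ccr6* and *Cd5*, which the study names in knockdown WT cells, and the chemoattractant receptors *Ccr1*, *Ccr2*, *Ccrl2*, *Cxcr4* and *Cmklr1*. They were selected by gene symbol from a table of 18876 genes, and all 7 were present and passed the filter on low counts. RNA was sequenced in bulk from CD11b+ cells of both hippocampi of female mice at 15 to 18 months of age, 1 sample per mouse. All mice were *Slc11a2* fl/fl;*Cx3cr1*Cre-ERT2+/- on a mixed 129S;C57BL/6J background, and the *APP/PS1* groups also carried the *APP/PS1* transgenes as hemizygotes, while WT littermates did not. The *Slc11a2*KD mice received 4 mg tamoxifen by gavage daily for 5 days at 5 to 6 months. Corn oil alone was given to Control mice, and an effect of tamoxifen itself cannot be told apart from the knockdown. The Cre is driven by the *Cx3cr1* promoter, which is active in microglia and other macrophages. Of 23 samples, 22 were used, with 6 of Control WT, 6 of Control *APP/PS1*, 5 of *Slc11a2*KD WT and 5 of *Slc11a2*KD *APP/PS1*. Control *APP/PS1* 0010 was left out. The study removed that sample as an outlier.

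Chemokine receptors are G protein-coupled receptors on the surface of leukocytes that steer migration along gradients of secreted chemokines. CCR6 is the receptor for CCL20 and is best known from B cells, subsets of T cells and dendritic cells. CD5 is a scavenger receptor-family glycoprotein of T cells and a subset of B cells that dampens antigen receptor signaling. CCR2 marks classical monocytes, CCR1 binds several inflammatory CC chemokines, CXCR4 binds CXCL12 and also the cytokine MIF, and CMKLR1 and CCRL2 both bind chemerin, the product of *Rarres2*, which CCRL2 presents without signaling itself. In resting brain the chemokine receptor for which microglia are best known is CX3CR1.

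Total counts per sample ran from 31128643 to 54872491 over the 22 samples. At the level of whole-gene counts, the targeted gene *Slc11a2* was lower in *Slc11a2*KD WT than in Control WT by less than the SD. In *Slc11a2*KD *APP/PS1* its mean was above that of Control *APP/PS1*. The means were 35.1 ± 5.13 CPM in Control WT (CPM, counts per 1000000 reads of the scaled library, SD, n = 6), 34.2 ± 4.75 CPM in *Slc11a2*KD WT (n = 5), 43.2 ± 3.93 CPM in Control *APP/PS1* (n = 6) and 56.5 ± 13.5 CPM in *Slc11a2*KD *APP/PS1* (n = 5). The floxed part covers only some exons of the gene, and the gene total also counts reads from the remaining exons, so it does not check the labels, and *Slc11a2*KD below means the samples labelled as such. The study assessed the knockdown by reads over the floxed exons and by RT-qPCR, and these measures were not analysed here. The microglial markers were present in every sample, with *Tmem119* between 1847 and 4947 CPM and *P2ry12* between 2082 and 6845 CPM. *Sall1*, the lowest of them, ran from 48.6 to 320 CPM. Between Control WT and Control *APP/PS1* the median of *Tmem119* fell from 4603 to 2010 CPM and that of *P2ry12* from 5202 to 2650 CPM. An index of how counts changed with transcript length separated some samples, running over the 22 from 0.193 to 0.817 in samples numbered 17 or lower, and in samples 18 to 23 from -0.667 to 0.120. Control *APP/PS1* 0010, which was left out, had an index of -0.531. Samples 18 to 23 were all *Slc11a2*KD. In bulk samples, fewer cells of a type and less RNA per cell cannot be told apart.

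*Ccr6* lies at chr17:8454869-8475973 on the plus strand of GRCm39, with 3 exons in its canonical transcript, and *Cd5* at chr19:10694480-10716366 on the minus strand, with 11 exons. RefSeq gives *Ccr6* 2 start sites on GRCm38.p6, and the windows from 250 bases before to 50 bases after each are shown because *Ccr6* fell at 2 separate levels in these samples. The *Cd5* and *Cxcr4* windows are shown because these genes separated the *APP/PS1* from the WT groups. Capitals mark GAGGAA, an ETS motif of the kind bound by PU.1, or ACGTG, the core of the hypoxia response element, on either strand. TGANTCA, the AP-1 motif, was searched too and was in none of these windows.
Ccr6 first start, chr17:8235793-8236092, plus strand: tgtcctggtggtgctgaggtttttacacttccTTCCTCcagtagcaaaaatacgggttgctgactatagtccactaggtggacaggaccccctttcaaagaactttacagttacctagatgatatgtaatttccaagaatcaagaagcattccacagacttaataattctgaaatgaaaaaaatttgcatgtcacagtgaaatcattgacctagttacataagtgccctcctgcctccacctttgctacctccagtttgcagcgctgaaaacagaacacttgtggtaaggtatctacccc
Ccr6 second start, chr17:8242276-8242575, plus strand: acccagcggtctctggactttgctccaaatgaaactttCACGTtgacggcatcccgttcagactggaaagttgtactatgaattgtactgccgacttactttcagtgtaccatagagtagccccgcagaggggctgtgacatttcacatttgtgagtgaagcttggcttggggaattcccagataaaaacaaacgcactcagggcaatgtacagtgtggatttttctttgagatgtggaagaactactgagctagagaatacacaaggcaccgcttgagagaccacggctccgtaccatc
Cd5, chr19:10738925-10739224, minus strand: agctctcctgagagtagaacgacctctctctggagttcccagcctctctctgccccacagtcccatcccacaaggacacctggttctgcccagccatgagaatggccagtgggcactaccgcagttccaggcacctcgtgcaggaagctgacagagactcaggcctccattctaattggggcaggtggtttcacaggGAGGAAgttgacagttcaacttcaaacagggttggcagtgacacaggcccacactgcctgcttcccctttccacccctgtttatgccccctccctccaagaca
Cxcr4, chr1:128592250-128592549, minus strand: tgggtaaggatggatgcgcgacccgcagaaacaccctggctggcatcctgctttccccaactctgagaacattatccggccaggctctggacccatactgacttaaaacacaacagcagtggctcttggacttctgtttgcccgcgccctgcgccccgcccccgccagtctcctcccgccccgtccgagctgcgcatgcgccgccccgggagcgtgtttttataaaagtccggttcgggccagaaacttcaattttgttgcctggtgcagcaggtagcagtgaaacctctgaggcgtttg
The first *Ccr6* window and the *Cd5* window each held 1 GAGGAA, and the second *Ccr6* window held 1 ACGTG. The *Cxcr4* window held none of the 3 motifs. Over 32851 such windows, 28.3% held GAGGAA, 19.6% ACGTG and 7.81% TGANTCA. A match is a description of the letters and not of binding.

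*Ccr6* was present at 2 separate levels, and mice of 3 of the 4 groups fell in the upper one. In 8 of the 22 samples it was between 18.7 and 64.1 CPM, and in the other 14 it was between 0 and 1.65 CPM, with no sample in between. In Control WT it was low in all 6 samples, with a lowest value of 0, a median of 0.996 and a highest value of 1.65 CPM. The value of 0 belonged to sample 0015, in which 0 counts allow a level of up to 0.0932 CPM (3 counts of the total, counting error only). In *Slc11a2*KD WT, *Ccr6* was at 60.8 CPM in sample 0001, 64.1 in 0002, 0.708 in 0003, 43.8 in 0019 and 34.0 in 0022. Thus 4 of 5 knockdown samples lay above every Control WT sample and the remaining one lay within their range. In Control *APP/PS1* it was at 37.4 CPM in sample 0005, 19.9 in 0007 and 25.8 in 0013, and between 0.762 and 1.24 CPM in the other 3. In *Slc11a2*KD *APP/PS1* it was at 18.7 CPM in sample 0021, and at 0.417 in 0004, 0.474 in 0018, 0.899 in 0020 and 0.257 in 0023. The upper level therefore held 4 of 5 *Slc11a2*KD WT and 3 of 6 Control *APP/PS1* mice, 1 of 5 *Slc11a2*KD *APP/PS1* mice and 0 of 6 Control WT mice. The group means ran in the order Control WT (0.903 ± 0.704 CPM, SD, n = 6), *Slc11a2*KD *APP/PS1* (4.15 ± 8.15 CPM, n = 5), Control *APP/PS1* (14.4 ± 15.6 CPM, n = 6) and *Slc11a2*KD WT (40.7 ± 25.5 CPM, n = 5), and each group overlapped the next.

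**Figure D1:**
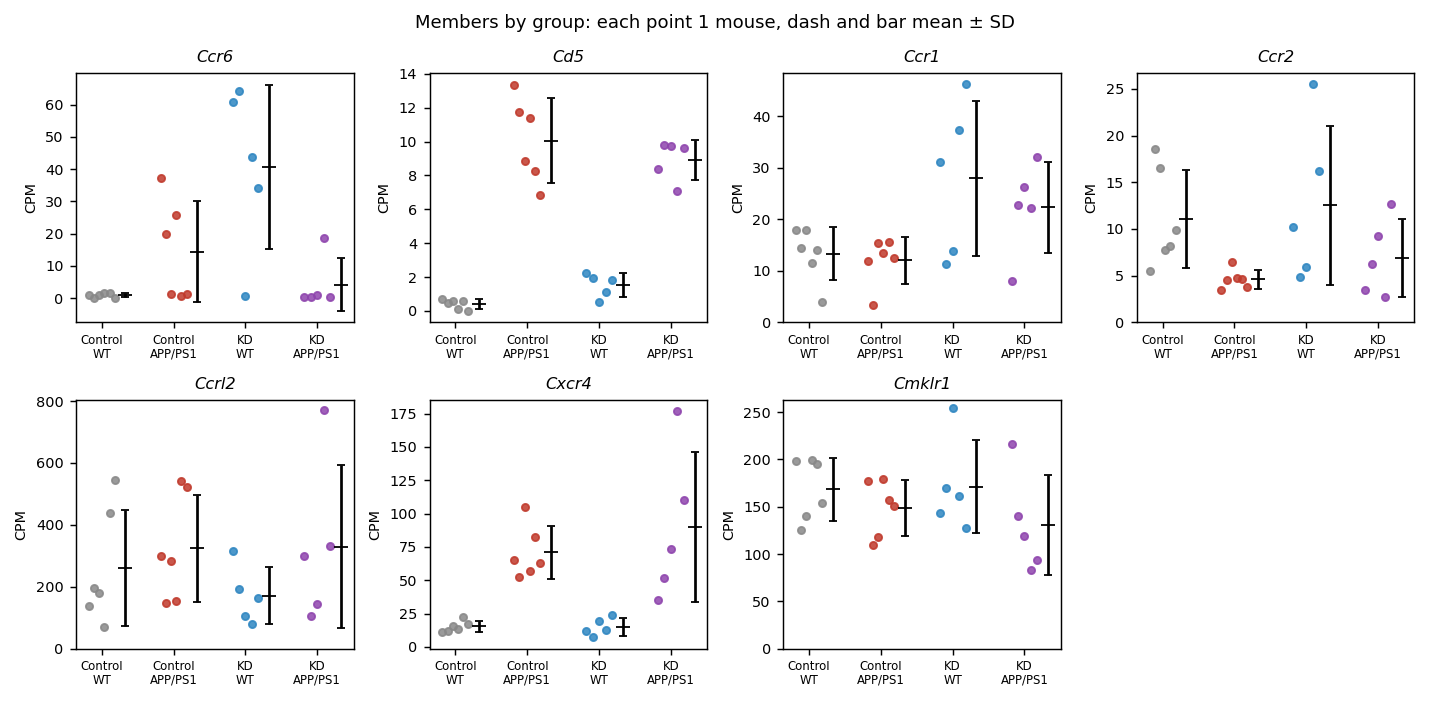
CPM (scaled counts, linear axes) of the 7 genes in the 4 groups; each point is 1 mouse, and the dash and bar are the mean ± SD (KD, *Slc11a2*KD). The groups of *Cd5* and *Cxcr4* separate by *APP/PS1* genotype, while *Ccr6* is at 18.7 CPM or more in 8 mice and at 1.65 CPM or less in 14.

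*Cd5* differed from *Ccr6* in that its levels followed the *APP/PS1* genotype in every sample. In Control WT it ran from 0 (sample 0015) through a median of 0.526 to 0.701 CPM. In Control *APP/PS1* it ran from 6.82 through a median of 10.1 to 13.4 CPM. In *Slc11a2*KD *APP/PS1* it was at 8.39 CPM in sample 0004, 9.79 in 0018, 9.73 in 0020, 7.05 in 0021 and 9.61 in 0023. All 11 *APP/PS1* samples thus lay above all 11 WT samples, and the WT values are those for which *Cd5* was chosen. Over all genes, samples did not overlap for 8.36% between the Control groups and for 7.06% between the *Slc11a2*KD groups. The share for 11 against 11 samples was not taken. In *Slc11a2*KD WT, *Cd5* was at 2.24 CPM in sample 0001, 1.96 in 0002, 0.525 in 0003, 1.15 in 0019 and 1.83 in 0022. These values were low beside the *APP/PS1* groups, and 4 of 5 were above every Control WT sample. Sample 0003, the 1 *Slc11a2*KD WT sample with low *Ccr6*, was also the lowest of its group for *Cd5*. The order of the group means was Control WT (0.415 ± 0.280 CPM, n = 6), *Slc11a2*KD WT (1.54 ± 0.695 CPM, n = 5), *Slc11a2*KD *APP/PS1* (8.91 ± 1.19 CPM, n = 5) and Control *APP/PS1* (10.1 ± 2.48 CPM, n = 6), in which only the 2nd and 3rd did not overlap.

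*Slc11a2*KD WT against Control WT asks what the knockdown changes without *APP/PS1*, and it is the comparison for which *Ccr6* and *Cd5* were chosen, so it is described without a test. The log2 fold change was 5.46 ± 1.28 (SE) for *Ccr6* and 1.88 ± 0.477 for *Cd5*. Among the receptors it was 1.07 ± 0.407 for *Ccr1*, 0.18 ± 0.412 for *Ccr2*, -0.62 ± 0.516 for *Ccrl2*, -0.04 ± 0.328 for *Cxcr4* and 0.02 ± 0.216 for *Cmklr1*. With samples 18 to 23 as a covariate it was 0.42 for *Ccr1* and -0.58 for *Ccr2*. Over all 18759 genes tested, edgeR's quasi-likelihood test called 0% at an adjusted p under 0.05 in this comparison. At an unadjusted p under 0.05 there were 1110 genes, DESeq2 called 10 and limma voom 1. The same 2 genes were compared between *APP/PS1* and WT without a test as well. For *Ccr6* the log2 fold change was 3.96 ± 1.19 between the Control groups and -3.29 ± 1.24 between the *Slc11a2*KD groups, and without *Slc11a2*KD *APP/PS1* 0021 the latter became -6.30. For *Cd5* it was 4.58 ± 0.501 between the Control groups and 2.53 ± 0.492 between the *Slc11a2*KD groups.

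The comparison of *Slc11a2*KD *APP/PS1* with Control *APP/PS1* asks for the effect of the knockdown in the disease model and was not used to choose the genes. None of the 7 passed the threshold, where edgeR called 0% of all genes. At an unadjusted p under 0.05 there were 3862 genes, DESeq2 called 580 and limma voom 2. Without *Slc11a2*KD *APP/PS1* 0004, 3069 genes passed, none of them a gene described here. *Ccr6* had a log2 fold change of -1.79 ± 1.14 (adjusted p = 0.376 by edgeR), with 3 of 5 knockdown samples below every Control sample and the other 2 within their range. Its value without sample 0021 was -4.81, with an adjusted p = 0.527 by edgeR. *Cd5* had a log2 fold change of -0.17 ± 0.442 (adjusted p = 0.883 by edgeR). The exact permutation test over samples, two-sided, gave p = 0.104 for *Ccr6* and p = 0.433 for *Cd5*, and it was run 17 times over all members and comparisons without adjustment.

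**Figure D2:**
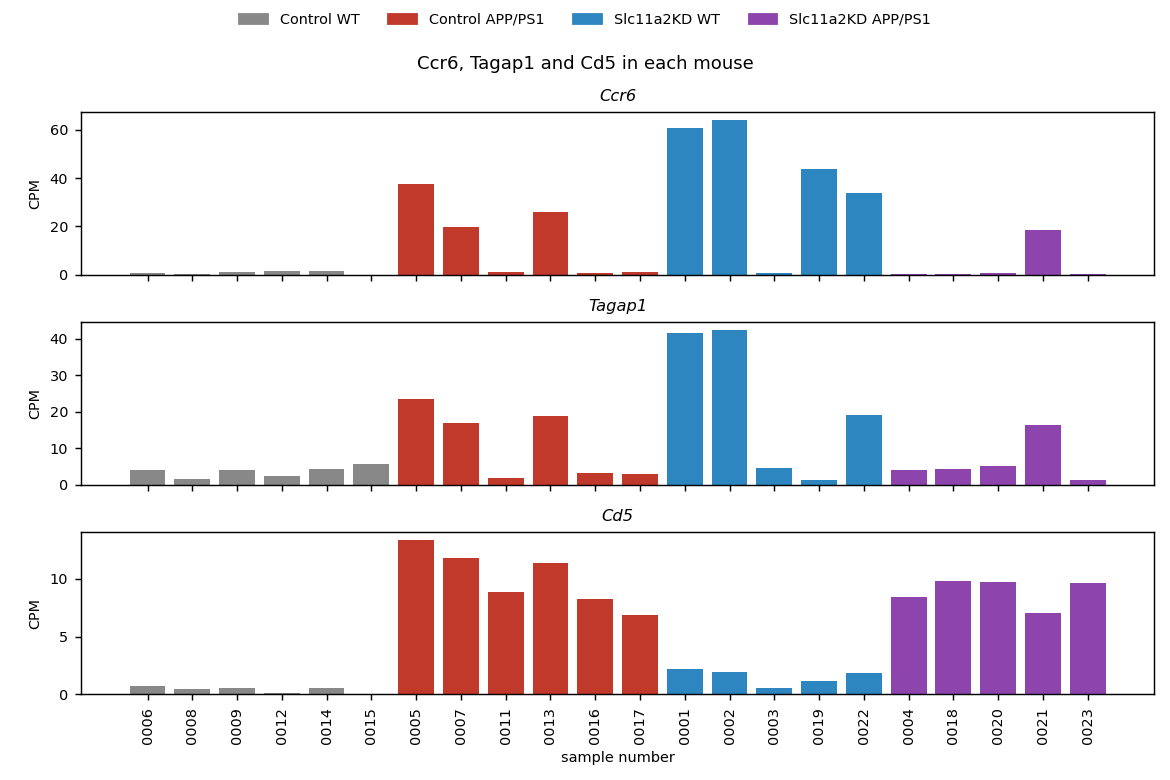
CPM of *Ccr6*, *Tagap1* and *Cd5* in each of the 22 mice (bars, linear axes from 0), ordered by group and sample number. The 7 mice with *Tagap1* above 10 CPM all have *Ccr6* above 10 CPM, and sample 0019 has high *Ccr6* (43.8 CPM) with low *Tagap1* (1.34 CPM).

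*Tagap1*, which is also on chromosome 17, was the gene whose pattern was most like that of *Ccr6*. Likeness was measured as Pearson's r of log2 CPM over the 22 samples among 11887 genes with a mean of at least 1 CPM, and all points share the libraries' depth and group structure. The r was 0.70 for *Tagap1*, 0.66 for *Asf1b*, a histone chaperone gene, and 0.66 for the pseudogene *Rnps1-ps*. After subtraction of the group means it was 0.61, 0.75 and 0.56. *Tagap1* lies 1.23 Mb from *Ccr6*, at chr17:7222031-7228641 on GRCm39, and it was above 10 CPM in 7 samples, all of which were among the 8 with high *Ccr6*. The exception was *Slc11a2*KD WT 0019, with 1.34 CPM of *Tagap1* and 43.8 CPM of *Ccr6*. In the other 7 samples with high *Ccr6*, *Tagap1* ran from 16.3 to 42.5 CPM. The 16 genes within 2 Mb on each side of *Ccr6* that reached a mean of 1 CPM had a median r of -0.04 with it, and the ones nearest to it, *Mpc1*, *Cep43* and *Sft2d1*, had an r of -0.33, -0.0014 and -0.19. After *Tagap1*, the highest of the 16 was *Dynlt1b*, with an r of 0.56, and 0.54 after subtraction of the group means, a dynein light chain gene of a family of close copies among which reads may be split. The 10 CPM level and the 2 Mb window were chosen after the values were seen. *Gm33799*, a long noncoding RNA gene that overlaps *Ccr6* on the other strand, was never above 0.286 CPM.

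The genes most like *Cd5* were *Rnf128*, a ubiquitin ligase gene (r = 0.92), *Cd200r4*, an activating receptor of the CD200R family (r = 0.91), and *Baiap2l2* (r = 0.91). After subtraction of the group means, r was 0.64, 0.66 and 0.35. *Cd200r4* was at 4.15 ± 2.40 CPM in Control WT and 63.2 ± 17.9 CPM in Control *APP/PS1* (n = 6 each), and at 4.40 ± 1.92 CPM in *Slc11a2*KD WT and 77.9 ± 33.6 CPM in *Slc11a2*KD *APP/PS1* (n = 5 each). *Ccr6* and *Cd5* had an r of 0.33 with each other, and 0.53 after subtraction of the group means.

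Of the markers of T and B cells, in which *Ccr6* and *Cd5* are best known, those of T cells were low in every sample, while the B cell markers ranged from near 0 to over 100 CPM. *Cd3d* was at 0 in 17 of 22 samples and never above 0.591 CPM, and *Cd3g* was at 0 in 18 and never above 0.395 CPM. Among the B cell markers, *Ms4a1* was at 0 in 4 samples and never above 5.22 CPM, but *Cd79b* ran from 9.70 to 25.0 CPM, *Cd22* from 5.61 to 46.4 CPM and *Ighd* from 1.70 to 10.8 CPM. The immunoglobulin light chain gene *Igkc* was at 0 in 3 samples, with a median of 1.40 and a highest value of 144 CPM. The sum of the 8 T cell markers in the table, of 12 listed, ran from 2.58 to 7.90 CPM in Control WT, from 1.60 to 3.13 in Control *APP/PS1*, from 2.92 to 5.36 in *Slc11a2*KD WT and from 0.513 to 6.85 in *Slc11a2*KD *APP/PS1*. The sum of 11 of 12 B cell markers ran from 273 to 394 CPM, from 371 to 452, from 313 to 374 and from 279 to 589.9 CPM in the same order, of which *Ighm* made up 245 to 401 CPM per sample. *Slc11a2*KD WT 0003, with 0.708 CPM of *Ccr6*, had the highest *Ms4a1* and *Cd79a* of all samples (5.22 and 3.70 CPM), and *Slc11a2*KD *APP/PS1* 0021, with 18.7 CPM of *Ccr6*, had 0 CPM of both. The cells behind the *Ccr6* and *Cd5* reads were not resolved in these bulk samples.

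*Cxcr4*, at chr1:128515936-128520044 on the minus strand, was higher with *APP/PS1* in both the Control and the *Slc11a2*KD mice, and the groups did not overlap. In Control WT it ran from 11.4 through a median of 14.8 to 22.4 CPM. In Control *APP/PS1* it ran from 52.8 through a median of 64.3 to 105 CPM. With means of 15.4 ± 4.13 and 70.9 ± 19.6 CPM (n = 6 per group), the log2 fold change was 2.20 ± 0.325 (SE), with an adjusted p = 4.5e-05 by edgeR and an exact permutation p = 0.0022. In *Slc11a2*KD WT it was at 11.9 CPM in sample 0001, 7.22 in 0002, 19.4 in 0003, 12.4 in 0019 and 24.2 in 0022. In *Slc11a2*KD *APP/PS1* it was at 35.4 CPM in sample 0004, 51.7 in 0018, 73.8 in 0020, 177 in 0021 and 110.2 in 0023. The lowest *Slc11a2*KD *APP/PS1* sample was thus above the highest WT sample of either treatment. With means of 15.0 ± 6.72 and 89.6 ± 56.3 CPM (n = 5 per group), the log2 fold change was 2.58 ± 0.361, with an adjusted p = 2.9e-05 by edgeR and an exact permutation p = 0.0079. Within samples 18 to 23, the 4 *Slc11a2*KD *APP/PS1* samples had a mean of 103 CPM and the 2 *Slc11a2*KD WT samples 18.3 CPM, and within samples 1 to 4 the 1 *Slc11a2*KD *APP/PS1* sample had 35.4 CPM and the 3 *Slc11a2*KD WT samples had a mean of 12.8 CPM. With the length index as a covariate, the log2 fold change between the *Slc11a2*KD groups was 1.69 (adjusted p = 0.00057 by edgeR).

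Against this background edgeR called 10.5% of all genes between the Control groups, 5.99% higher and 4.48% lower in *APP/PS1*, and the samples of the groups did not overlap for 8.36%. Between the *Slc11a2*KD groups it called 16.2%, 9.77% higher and 6.41% lower, with no overlap for 7.06%. Of the 5 receptors tested, *Cxcr4* and *Ccr2* were called between the Control groups and *Cxcr4* between the *Slc11a2*KD groups. *Cxcr4* did not differ by the test between *Slc11a2*KD and Control *APP/PS1*, with a log2 fold change of 0.34 ± 0.324 (adjusted p = 0.603 by edgeR), and 2 of 5 knockdown samples lay above and 2 below all Control samples. In that comparison the samples did not overlap for 0.821% of all genes and for none of the 7 described here. For *Cxcr4* the interaction between knockdown and genotype was 0.38 ± 0.462 (adjusted p = 0.766 by edgeR).

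**Figure D3:**
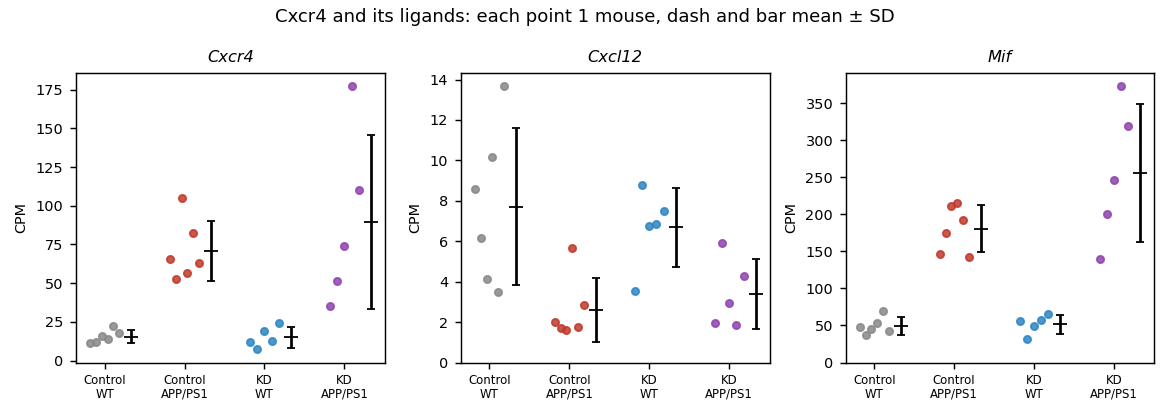
CPM of *Cxcr4* and of the genes for its ligands CXCL12 and MIF in the 4 groups (linear axes); each point is 1 mouse, and the dash and bar are the mean ± SD (KD, *Slc11a2*KD). *Mif* rises with *Cxcr4*, from 49.2 to 180.5 CPM between the Control groups, while *Cxcl12* falls from 7.71 to 2.60 CPM between the same groups, in which the summed endothelial markers were also lower with *APP/PS1* (1 of the 5, *Flt1*, had a higher median).

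The genes for the ligands of CXCR4 went in opposite directions between the Control groups. *Cxcl12* fell from 7.71 ± 3.88 to 2.60 ± 1.58 CPM (n = 6 each), with an adjusted p = 0.0092 by edgeR, and was at 6.68 ± 1.94 CPM in *Slc11a2*KD WT and 3.39 ± 1.71 CPM in *Slc11a2*KD *APP/PS1* (n = 5 each, adjusted p = 0.113 by edgeR). The summed level of the 5 endothelial markers was lower in the same samples, at 161 to 364 CPM in Control WT and 103 to 142 in Control *APP/PS1*, which did not overlap, and of 137 to 309 in *Slc11a2*KD WT and 85.1 to 166 in *Slc11a2*KD *APP/PS1*. *Flt1*, 1 of the 5, had the higher median with *APP/PS1*, and ran from 15.3 to 20.8 CPM in Control WT and from 17.4 to 67.0 CPM (median 42.9) in Control *APP/PS1*, with medians of 10.3 and 26.6 CPM in the *Slc11a2*KD groups. None of the 5 was at 0 in any sample, and their part in the level of *Cxcl12* was not tested. *Mif* rose from 49.2 ± 11.6 to 180.5 ± 31.6 CPM between the Control groups (adjusted p = 1.1e-06 by edgeR) and from 51.8 ± 12.8 to 256 ± 92.8 CPM between the *Slc11a2*KD groups (adjusted p = 4.7e-07 by edgeR). *Mif* was also, of 11887 genes, the one most like *Cxcr4* over the 22 samples (r = 0.96, and 0.80 after subtraction of the group means), followed by *Pkib* (r = 0.96 and 0.76), a protein kinase A inhibitor gene, and *Ldha* (r = 0.95 and 0.72), which encodes a subunit of lactate dehydrogenase.

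*Ccr2*, at chr9:123901982-123913594 on the plus strand, was lower in Control *APP/PS1* than in Control WT, but the call depended on single samples. In Control WT it ran from 5.52 through a median of 8.98 to 18.6 CPM. In Control *APP/PS1* it ran from 3.41 through a median of 4.59 to 6.44 CPM. All but 1 of the 6 Control *APP/PS1* samples lay below every Control WT sample. The log2 fold change was -1.27 ± 0.401 with an adjusted p = 0.044 by edgeR and an exact permutation p = 0.0043. Leaving out single samples moved it between -1.40 and -1.06, with an adjusted p by edgeR between 0.031 and 0.115, and the call was kept in 4 of 12 cases. It was lost without Control *APP/PS1* 0005, 0007, 0013, 0016 or 0017 or Control WT 0008, 0009 or 0015, and also with Control *APP/PS1* 0010 kept (-0.89, adjusted p = 0.181 by edgeR). In *Slc11a2*KD WT it was at 10.2 CPM in sample 0001, 4.83 in 0002, 5.93 in 0003, 25.5 in 0019 and 16.2 in 0022. In *Slc11a2*KD *APP/PS1* it was at 3.51 CPM in sample 0004, 6.22 in 0018, 9.27 in 0020, 2.69 in 0021 and 12.7 in 0023. These groups overlapped, and the log2 fold change was -0.87 ± 0.435 (adjusted p = 0.171 by edgeR). It passed with samples 18 to 23 as a covariate (-1.28, adjusted p = 0.031 by edgeR) and with the length index as a covariate (-1.40, adjusted p = 0.046 by edgeR).

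The monocyte markers, all 8 of which were in the table, summed to 43.0 to 102 CPM in Control WT, 13.8 to 38.5 in Control *APP/PS1*, 38.3 to 82.6 in *Slc11a2*KD WT and 20.2 to 70.8 in *Slc11a2*KD *APP/PS1*. The Control groups did not overlap in this sum, whereas for *Ccr2* itself they did. None of these markers was at 0 throughout, and *Vcan* was the lowest, between 0 and 0.675 CPM. The summed level of the border-associated macrophage markers, which was not tested, ran from 234 to 486 CPM in Control WT, 85.2 to 203 in Control *APP/PS1*, 324 to 547 in *Slc11a2*KD WT and 133 to 214 in *Slc11a2*KD *APP/PS1*. Of these markers, *Pf4* had like medians in the *Slc11a2*KD groups (34.8 and 35.3 CPM). The part of both lists in the levels of *Ccr2* was not tested. The genes most like *Ccr2* were *Plbd1* (r = 0.85), *Itgb7*, an integrin gene of leukocyte homing (r = 0.83), and *P2ry10b* (r = 0.81), with an r of 0.76, 0.72 and 0.67 after subtraction of the group means.

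*Ccr1*, at chr9:123762161-123768734 on the minus strand, had means of 13.3 ± 5.19 CPM in Control WT and 12.0 ± 4.51 CPM in Control *APP/PS1* (n = 6 each), and of 28.0 ± 15.1 CPM in *Slc11a2*KD WT and 22.3 ± 8.88 CPM in *Slc11a2*KD *APP/PS1* (n = 5 each). In *Slc11a2*KD WT it was at 31.1 CPM in sample 0001, 11.2 in 0002, 13.9 in 0003, 37.3 in 0019 and 46.2 in 0022. In *Slc11a2*KD *APP/PS1* it was at 8.03 CPM in sample 0004, 22.8 in 0018, 26.3 in 0020, 22.2 in 0021 and 32.1 in 0023. The Control samples used reached at most 17.9 CPM, so that 7 of the 10 *Slc11a2*KD samples were above all 12 of them, but Control *APP/PS1* 0010, which was left out, was at 45.8 CPM. All 6 samples numbered 18 to 23 were among them, with 1 of the 4 samples numbered 1 to 4. The log2 fold change between *Slc11a2*KD and Control *APP/PS1* was 0.89 ± 0.407 (adjusted p = 0.226 by edgeR, exact permutation p = 0.0909). It was 0.40 with sample 0010 kept (adjusted p = 0.771 by edgeR), and with samples 18 to 23 as a covariate it turned to -0.31. The last value leans on sample 0004, the only *Slc11a2*KD *APP/PS1* sample not numbered 18 to 23, and on the *Slc11a2*KD WT samples. The Control mice all have numbers 5 to 17, and the part of the sample number in this difference was not tested otherwise. Over the 22 samples *Ccr1* had an r of -0.52 with the length index. *APP/PS1* against WT gave log2 fold changes of -0.15 ± 0.389 between the Control groups (adjusted p = 0.882 by edgeR) and -0.33 ± 0.425 between the *Slc11a2*KD groups (adjusted p = 0.66 by edgeR). Most like it were *Gstm4*, a glutathione transferase gene (r = 0.84, and 0.84 after subtraction of the group means), *Hspa14* (r = 0.81 and 0.78) and *Tmem185b* (r = 0.80 and 0.76).

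**Figure D4:**
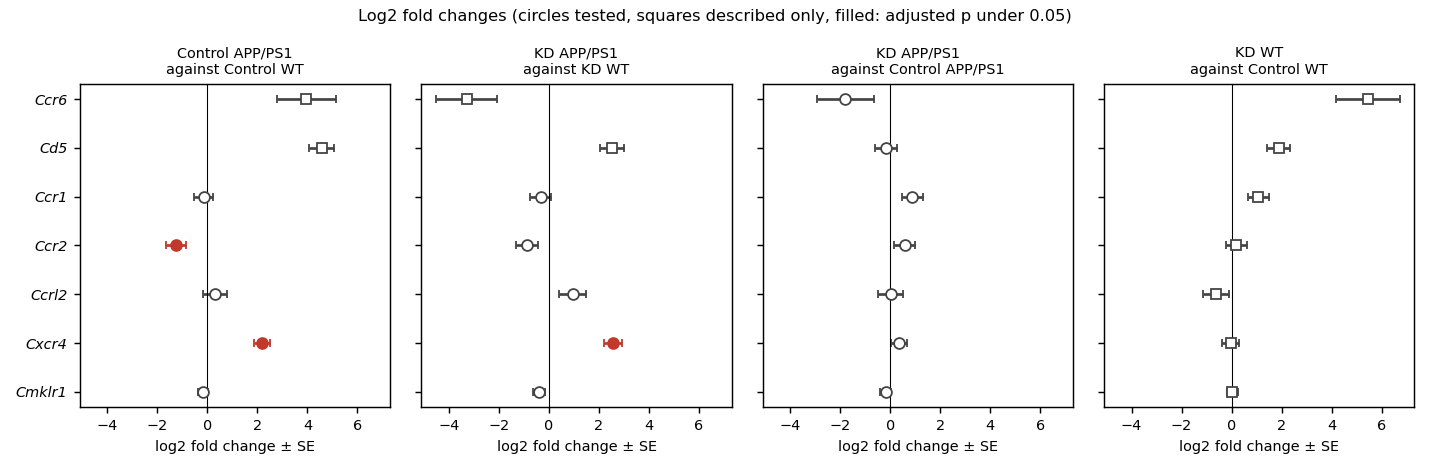
Log2 fold changes ± SE of the 7 genes in 4 comparisons on 1 shared axis (KD, *Slc11a2*KD). Circles were tested and squares are described only; filled symbols passed an adjusted p of 0.05 in edgeR, which were *Cxcr4* in both comparisons of *APP/PS1* with WT (2.20 and 2.58) and *Ccr2* between the Control groups (-1.27).

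*Ccrl2*, at chr9:110883554-110886591 on the minus strand, was the most abundant of the 7 per length of transcript and varied widely within every group. Its mean over the 22 samples was 110.4 CPM per kb of canonical transcript, against 52.4 for *Cmklr1*, 26.0 for *Cxcr4*, 9.13 for *Ccr6*, 6.46 for *Ccr1*, 1.68 for *Cd5* and 1.52 for *Ccr2*. It ran from 70.5 to 545 CPM in Control WT (median 188), from 146 to 541 CPM in Control *APP/PS1* (median 292), from 78.9 to 314 CPM in *Slc11a2*KD WT (median 162) and from 104 to 769.5 CPM in *Slc11a2*KD *APP/PS1* (median 298). All 4 groups overlapped. The log2 fold change between *APP/PS1* and WT was 0.32 ± 0.487 in the Control groups (adjusted p = 0.781 by edgeR) and 0.95 ± 0.538 in the *Slc11a2*KD groups (adjusted p = 0.232 by edgeR), and between *Slc11a2*KD and Control *APP/PS1* it was 0.02 ± 0.51 (adjusted p = 0.993 by edgeR). The genes most like it were *Junb* (r = 0.95), *Dusp5* (r = 0.95) and *Tgif1* (r = 0.94), and the r remained between 0.94 and 0.95 after subtraction of the group means. *Junb* and *Dusp5* are immediate early response genes, known to be induced while cells are dissociated, and the part of cell isolation in the levels of *Ccrl2* was not tested.

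*Cmklr1*, at chr5:113750358-113788509 on the minus strand, varied least, with a highest level 3.06 times the lowest over the 22 samples. Its means were 169 ± 33.3 CPM in Control WT, 149 ± 29.2 CPM in Control *APP/PS1* (n = 6 each), 171 ± 49.3 CPM in *Slc11a2*KD WT and 131 ± 53.1 CPM in *Slc11a2*KD *APP/PS1* (n = 5 each), and all groups overlapped. In *Slc11a2*KD *APP/PS1* it was at 217 CPM in sample 0004, 141 in 0018, 119 in 0020, 83.1 in 0021 and 93.3 in 0023, so that sample 0004 stood above the other 4. The log2 fold change was -0.18 ± 0.206 between the Control groups (adjusted p = 0.68 by edgeR), -0.39 ± 0.226 between the *Slc11a2*KD groups (adjusted p = 0.243 by edgeR) and -0.19 ± 0.216 between *Slc11a2*KD and Control *APP/PS1* (adjusted p = 0.685 by edgeR). Without sample 0004, the difference between the *Slc11a2*KD groups passed (-0.65, adjusted p = 0.022 by edgeR), and with the length index as a covariate it was -0.02. *Cmklr1* had an r of 0.72 with the length index over the 22 samples. The gene most like it was *Ets1*, an ETS-family transcription factor gene (r = 0.94, and 0.93 after subtraction of the group means), followed by *Lman1* and *B3galt5* (r = 0.87 for both). *Rarres2*, the gene for chemerin, was at 0.839 ± 0.609 CPM in Control WT and 0.463 ± 0.284 CPM in Control *APP/PS1* (n = 6 each).

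No interaction of knockdown and *APP/PS1* was called for the 5 receptors, where edgeR called 0% of all genes, with 1703 genes at an unadjusted p under 0.05, 25 called by DESeq2 and 1 by limma voom. The adjusted p by edgeR was 0.818 for *Ccr2*, 0.746 for *Ccrl2*, 0.814 for *Cmklr1* and 0.934 for *Ccr1*. For *Ccr6* and *Cd5* the interaction was not tested.

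Of 19 other chemokine receptors, 15 were in the table, and edgeR called 1, *Cx3cr1*, in both comparisons of *APP/PS1* with WT, where it called 10.5% and 16.2% of all genes. *Cx3cr1*, the gene whose promoter drives the Cre, had means of 2762 ± 290 CPM in Control WT and 1944 ± 187 CPM in Control *APP/PS1* (n = 6 each, log2 fold change -0.51 ± 0.121, adjusted p = 0.0072 by edgeR), and of 2621 ± 364 and 1685 ± 352 CPM in the *Slc11a2*KD groups (n = 5 each, -0.64 ± 0.133, adjusted p = 0.0021 by edgeR). It thus went the opposite way to *Cxcr4*. The median log2 fold change of the 15 was -0.79 between the Control groups and -0.67 between the *Slc11a2*KD groups, against -0.02 and -0.07 over all genes. These medians fell on genes near 0 CPM that were not called, *Xcr1* (means of 0.232 and 0.134 CPM in Control WT and Control *APP/PS1*) and *Cxcr6* (0.144 CPM in WT and 0.0891 CPM in *APP/PS1* mice of the *Slc11a2*KD groups), so they do not describe a change of the family. Among 9 of 10 other chemoattractant receptors, 1 rose and 4 fell between the Control groups, and 1 rose and 3 fell between the *Slc11a2*KD groups, where of all genes 5.99% rose and 4.48% fell between the Control groups and 9.77% and 6.41% between the *Slc11a2*KD groups. The one that rose in both was *C3ar1*, the receptor for complement C3a (0.86 ± 0.106 and 0.95 ± 0.116). *Ltb4r1*, the receptor for leukotriene B4 (-1.99 ± 0.542 and -2.10 ± 0.596), *Cysltr1*, a cysteinyl leukotriene receptor (-0.82 ± 0.141 and -0.88 ± 0.155), and *C5ar2*, a receptor for complement C5a (-0.62 ± 0.176 and -0.96 ± 0.194), fell in both, and *Fpr2*, a formyl peptide receptor, between the Control groups (-2.38 ± 0.654). *Ltb4r1* and *Fpr2* were low, with Control means of 2.14 and 0.538 CPM for *Ltb4r1* and 1.69 and 0.32 CPM for *Fpr2* in WT and *APP/PS1*. The summed level of the 9 neutrophil markers overlapped between these groups (240.2 to 496 and 285 to 325 CPM), and overlapped between the *Slc11a2*KD groups (203 to 626 CPM in WT and 195 to 363 in *APP/PS1*). The sum holds *Csf3r*, which ran from 93.6 to 282 CPM. Of the defining markers, *S100a8* had a median of 53.7 CPM in Control WT and 21.1 in Control *APP/PS1*, *Retnlg* of 12.4 and 2.28 CPM, and *Ly6g* was at 0 in 3 of the 12 samples. Their part in the levels of *Ltb4r1* and *Fpr2* was not tested.

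Of 11 genes for ligands of the 7 genes' products, 10 were in the table. Between the Control groups 3 rose and 3 fell, and between the *Slc11a2*KD groups 3 rose and 0 fell, beside 10.5% and 16.2% of all genes called. *Mif*, *Ccl6* and *Ccl3* rose in both. *Ccl6*, a CC chemokine that binds CCR1, rose from 270.1 ± 121 to 785 ± 278 CPM between the Control groups and from 246 ± 113 to 1090 ± 166 CPM between the *Slc11a2*KD groups, and *Ccl3*, another ligand of CCR1, from 218 ± 127 to 469.8 ± 86.2 CPM and from 151 ± 60.0 to 467 ± 134 CPM. *Ccl7* (-1.74 ± 0.488) and *Ccl2* (from 85.8 ± 41.4 to 42.9 ± 11.8 CPM), ligands of CCR2, fell with *Cxcl12* between the Control groups. The median log2 fold change of the 10 was -0.71 between the Control groups and 0.37 between the *Slc11a2*KD groups.

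Of 26 genes of receptor signaling, 1 rose and 4 fell between the Control groups, and 1 rose and 8 fell between the *Slc11a2*KD groups, beside 10.5% and 16.2% of all genes called, with 4.48% and 6.41% of all genes lower. *Gng5*, a G protein gamma subunit, rose in both (0.80 ± 0.206 and 1.43 ± 0.229). *Elmo1*, which links G protein signals to Rac, fell in both (-0.91 ± 0.186 and -1.30 ± 0.206), *Rgs18*, a regulator of G protein signaling, fell between the Control groups (-2.23 ± 0.393), and *Pik3r5* and *Pik3cg*, subunits of the G protein-activated PI3 kinase, fell between the *Slc11a2*KD groups (-1.02 ± 0.285 and -0.76 ± 0.253). The median of the 26 was -0.16 between the Control groups and -0.34 between the *Slc11a2*KD groups. Of 7 of 8 genes for partners of CD5, 3 rose between the Control groups and 4 between the *Slc11a2*KD groups, and 0 fell, beside 5.99% and 9.77% of all genes that rose. *Cd72*, described as a ligand of CD5, rose from 11.6 ± 9.05 to 47.8 ± 14.4 CPM and from 10.7 ± 6.79 to 41.8 ± 6.84 CPM. The phosphatase gene *Ptpn6* (0.53 ± 0.0903 and 0.49 ± 0.0989) and the kinase gene *Fyn* (0.79 ± 0.224 and 0.98 ± 0.247) rose in both. In these 5 lists edgeR called 0 genes between *Slc11a2*KD and Control in either genotype, where it called 0 of all genes.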

How the data were processed

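CD11b+ hippocampal cells of 23 female mice were sequenced in bulk, and groups were taken from the sample labels. The authors trimmed reads with Trim Galore 0.6.7 and Cutadapt, aligned them with STAR to mm39 with GENCODE annotation and deposited counts per gene from STAR's gene count mode, with no strand setting given in the sources used here. The authors also deposited a signal, the counts divided by 1 size factor per sample (named DESeq2 1.36.0 in the submitters' processing notes), which was used only as an alternative for levels.

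The test was edgeR 4.0.16 (R 4.3.3), its quasi-likelihood test with TMM scaling and the 4 groups in 1 fit, on the 18759 genes that reached 5 counts in 3 or more of the 22 samples, with Benjamini-Hochberg adjustment over all genes and a threshold of 0.05. The standard error is the log2 fold change divided by the square root of F. Single genes were also compared by two-sided exact permutation tests of mean log2 CPM (prior count 2, scipy 1.17.1). The value of sample 0010 was scaled over 23 samples. The length index of a sample is the mean log2 CPM of the genes above the upper quartile of exonic length minus that of the genes below the lower quartile. No per-sample column was left unused. Positions came from GENCODE M39, in which 18731 of 18876 identifiers were found, and promoter windows from RefSeq. The steps were tested on simulated counts. Samples are 1 mouse each by the labels, and 0 counts allow a level of up to 3 counts of the total.

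The genes and gene lists were chosen with earlier results of these data known. Named from the lists were up to 4 genes per comparison with the largest fold change past the threshold, the ligands and *Cx3cr1*, and per member the 3 genes of highest r. The alternatives were DESeq2 1.42.0, its size factors in edgeR, limma voom 3.58.1, no filter, only the compared groups, 0010 kept, samples 18 to 23 or the length index as a covariate, a log2 fold change above 1, each sample left out, and Spearman's rho or deviations from group means for likeness. The length index was chosen after seeing the data. Some items are not reported here.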

Additional observations from a re-analysis of the deposited data

Results flagged for a closer look

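Within groups of 5 or 6 samples, 5 of 28 sets of values of the 7 genes held a sample far from the others on the log2 scale by Dixon's test, where chance gives about 1 in 20 sets. The *Ccr6* and *Cd5* values of the WT groups are those for which these genes were chosen, so the count is a description and not a test against that rate. *Ccr6* stood apart in *Slc11a2*KD WT 0003 at 0.708 CPM, below the other 4, and in *Slc11a2*KD *APP/PS1* 0021 at 18.7 CPM, above the other 4. *Ccr1* stood apart on the low side in Control WT 0015 at 3.96 CPM, in Control *APP/PS1* 0007 at 3.33 CPM and in *Slc11a2*KD *APP/PS1* 0004 at 8.03 CPM.

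Control *APP/PS1* 0010, which entered no comparison, was above every Control WT sample for *Cd5* at 2.71 CPM, for *Ccr1* at 45.8 CPM and for *Cxcr4* at 97.9 CPM. It was below all 6 other Control *APP/PS1* samples for *Cd5*, *Ccr6* (0.519 CPM) and *Cmklr1* (84.4 CPM). For *Ccr1* and *Ccr2* (14.1 CPM) it was above them.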

How the results depend on the processing

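Values are log2 fold changes from edgeR unless named otherwise. *Cxcr4* between *APP/PS1* and WT passed under all alternatives run, in the Control and in the *Slc11a2*KD mice. No paired analysis was possible because each sample number occurs once.

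The number of genes past the threshold was 1965 between the Control groups, and it was 3691 with the length index as a covariate, 3421 with limma voom, 3241 with only the compared groups in the fit and 918 with a log2 fold change above 1 also required. Between the *Slc11a2*KD groups it was 3034, and it was 1827 with the length index, 1773 with samples 18 to 23 as a covariate, 1041 with only the compared groups and 1105 with the fold limit. Leaving out single samples gave 1561 to 1969 and 1977 to 4781 genes. Between *Slc11a2*KD and Control it was 0 in *APP/PS1* mice (580 with DESeq2, 2 with limma voom, 0 to 3069 without single samples), 0 in WT mice (10, 1, and 0 to 1) and 0 for the interaction (25, 1, and 0 to 1).

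Of the 5 receptors, 2 passed between the Control groups, 1 with 0010 kept and 1 to 2 without single samples. Between the *Slc11a2*KD groups 1 passed, and 2 with either covariate, the second being *Ccr2*, and 1 to 2 without single samples. Of the 7 genes 0 passed between *Slc11a2*KD and Control *APP/PS1*, and of the 5 receptors 0 for the interaction, also without single samples.

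Changes of sign came only in differences past no threshold, and the cause was not tested. For *Slc11a2*KD against Control *APP/PS1*, samples 18 to 23 as a covariate gave -0.31 for *Ccr1*, -0.60 for *Ccr2*, -0.47 for *Cxcr4* and 0.27 for *Cmklr1*. These values lean on sample 0004, the only *Slc11a2*KD *APP/PS1* sample not numbered 18 to 23, and on the *Slc11a2*KD WT samples. The length index gave -0.051 for *Ccr2*, -0.47 for *Ccrl2*, -0.51 for *Cxcr4* and 0.14 for *Cmklr1*. For *Ccrl2*, only the compared groups gave -0.0016 and limma voom -0.51, and single samples left out moved it from -0.58 to 0.23. Single samples left out moved *Cxcr4* from -0.084 (0021) to 0.54. *Ccr1* between the Control groups was at 0.34 with 0010 kept and from -0.34 to 0.048 (0007) without single samples, and between the *Slc11a2*KD groups at 0.036 with limma voom. The interaction changed sign for *Ccr1* with limma voom (0.43) and without 0004, 0022 or 0015 (from -0.38 to 0.078 over single samples), for *Ccr2* with the covariate of sample numbers (-0.012), for *Ccrl2* with limma voom (-0.40), for *Cxcr4* with that covariate (-0.054), with the length index (-0.41) and without 0021 (from -0.031 to 0.62 over single samples), and for *Cmklr1* with the length index (0.10). With the deposited normalized counts, every group level relative to the mean moved by less than 1 SD. Of the 3 genes most like each gene, 0 to 1 recurred by deviations from group means.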
